A study of Mus musculus with 5 samples.

Results

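The 10 mouse genes that respond to growth hormone (GH) and its transcription factor Stat5b were followed here in liver RNA-seq libraries of Srsf2 mutant and control mice. They were taken by symbol from the deposited expression table, as 10 of 46095 gene records, without regard to their values, although earlier results of these data were known. Ghr encodes the GH receptor and Stat5b the transcription factor that it activates. Socs2 and Cish encode feedback inhibitors of the receptor, and Bcl6 a repressor that binds many of the same DNA sites as Stat5b. Hsd3b5, Elovl3, Slco1a1, Selenbp2 and Serpina1e are liver genes downstream of the pathway.

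All mice were C57BL/6, and each group was 1 library from 1 liver. The 2M group held a Srsf2f/f liver, which the labels call wild type, and a liver labelled HKO, the cross of Srsf2f/f mice with Alb-Cre mice, in which the albumin promoter drives Cre in hepatocytes. The 12M group held a Srsf2f/f liver and, from a mutant liver, a non-tumor and a tumor section. The labels give the genotype HKO8 to the 2M mutant and to the non-tumor section and none to the tumor, and the codes of both sections carry the same animal number. The age of 12 months is that of the titles, while the sample codes of this group start with M13. With 1 library a group no test between conditions was possible, no p-value is given, and differences between these livers cannot be told apart from differences between the conditions. Intervals throughout are 95% counting intervals on fragments worked back from the deposited values (exact Poisson for levels, exact binomial for ratios), so they cover counting error only.

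GH binds its receptor on hepatocytes, and the associated kinase Jak2 phosphorylates Stat5b, which enters the nucleus and binds paired TTC and GAA motifs. In male rodents GH is released in pulses and in females more evenly, and this pattern sets the sex difference of many liver genes: male-biased genes need pulsed Stat5b activity, and Bcl6 represses female-biased genes in males. Cish and Socs2 are induced by Stat5 within a pulse and then dampen signaling, so their transcript levels in a liver also depend on when it was taken. The hour of sampling was not given in the sources used here.

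Depth was similar, at 34969834 to 36104176 fragments per library. Levels are FPKM, which corrects fragment counts for gene length and depth, so they can be compared between genes. A log2 ratio is that of FPKM with 0.1 added, and a call needed a value over 1 or under -1 together with more than 5 FPKM in either library. Relative to the bulk of 9099 expressed genes, the log2 scale of the library labelled HKO lay 0.25 above its control, non-tumor tissue 0.19 above the 12M Srsf2f/f liver, and the tumor 0.16 above the non-tumor section and 0.35 above the 12M Srsf2f/f liver. Srsf2 itself was at 14.6 FPKM in the control and 22.7 in the library labelled HKO at 2M. At 12M it was at 15.7 FPKM in the control, 17.6 in non-tumor tissue and 15.6 in the tumor. This gene-level value thus did not check the HKO label. The paper reports that the protein of this gene, missing from younger HKO livers, was detected again at the ages sampled here. It also reports that altered splicing had returned to the wild-type state by then. Neither was tested in these libraries. The labels give no sex. The Y-linked gene Eif2s3y was at 8.83 to 13 FPKM in the 5 libraries and Xist was listed at 0 in each. Ddx3y, Kdm5d and Uty, also Y-linked, were at 4.29, 1.21 and 0.766 FPKM or more in every library. Hepatocyte transcripts were abundant in all 5 libraries, with Alb at 28781 FPKM or more. Alb, Xist and the Y-linked genes were chosen after their values were seen. Markers of other cells moved with the groups. Of 14 measured macrophage and Kupffer cell markers, 13 were higher in the library labelled HKO than in its control. Of all 11777 genes with over 1 FPKM, 25.8% were past a log2 ratio of 1 there. The summed level of this marker list ran from 222 FPKM in the 12M Srsf2f/f liver to 1732 in the library labelled HKO. The summed stellate cell and fibroblast markers ran from 97.3 FPKM in the 2M Srsf2f/f liver to 402.1 in the library labelled HKO, neutrophil markers from 2.17 to 145.8 in the same libraries, and biliary markers from 23.2 in the 2M Srsf2f/f liver to 2080 in the tumor. Within these lists the tumor was mixed. Against the 12M Srsf2f/f liver, 6 of 14 macrophage and Kupffer cell markers were higher in it, with Cd14 at a log2 ratio of 6.46, and 5 were lower, with Clec4f at -8.53 and Cd5l at -6.73, while the summed list was at 561 FPKM. Of all 7553 genes with over 5 FPKM, 27.4% were higher and 9.49% lower in that comparison, while the markers were counted from 1 FPKM. Against non-tumor tissue, 7 of 10 listed biliary markers were measured. In the tumor 4 of the 7 were higher, with Spp1 at 3.04 and Sox9 at 3.02, and 3 were lower, with Krt19 at -4.42 and Krt7 at -3.76. Of all 12063 genes with over 1 FPKM, 20.2% were higher and 8.72% lower there. Spp1 alone had 2035 of the 2080 FPKM. The part of cell makeup in the results was not tested, and in bulk tissue fewer cells of a type and less RNA per cell cannot be told apart.

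The members moved most in the library labelled HKO. Against the 2M Srsf2f/f liver, 8 of 10 members were lower and 0 higher, where 6.98% of all 7220 genes were called lower and 19.2% higher. In non-tumor tissue against the 12M Srsf2f/f liver, 2 of the 9 members over the minimum were lower and 1 was higher, beside 1.73% and 6.14% of 6481 genes. In the tumor against non-tumor tissue, 6 of 9 were lower and 0 higher, beside 8.43% and 17.7% of 7618 genes. Against the 12M Srsf2f/f liver, 5 of 8 were lower in the tumor and 0 higher, beside 9.49% and 27.4% of 7553 genes. Between the controls, 3 of 10 members were lower at 12M than at 2M and 1 was higher, beside 2.09% and 2.39% of 6114 genes. The median log2 ratio of the 10 members was -3.52, -0.09, -1.37, -1.30 and -0.35 in this order, against 0.23, 0.14, 0.23, 0.43 and -0.01 over all genes tested. These comparisons share libraries and are not independent of each other.

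**Figure D1:**
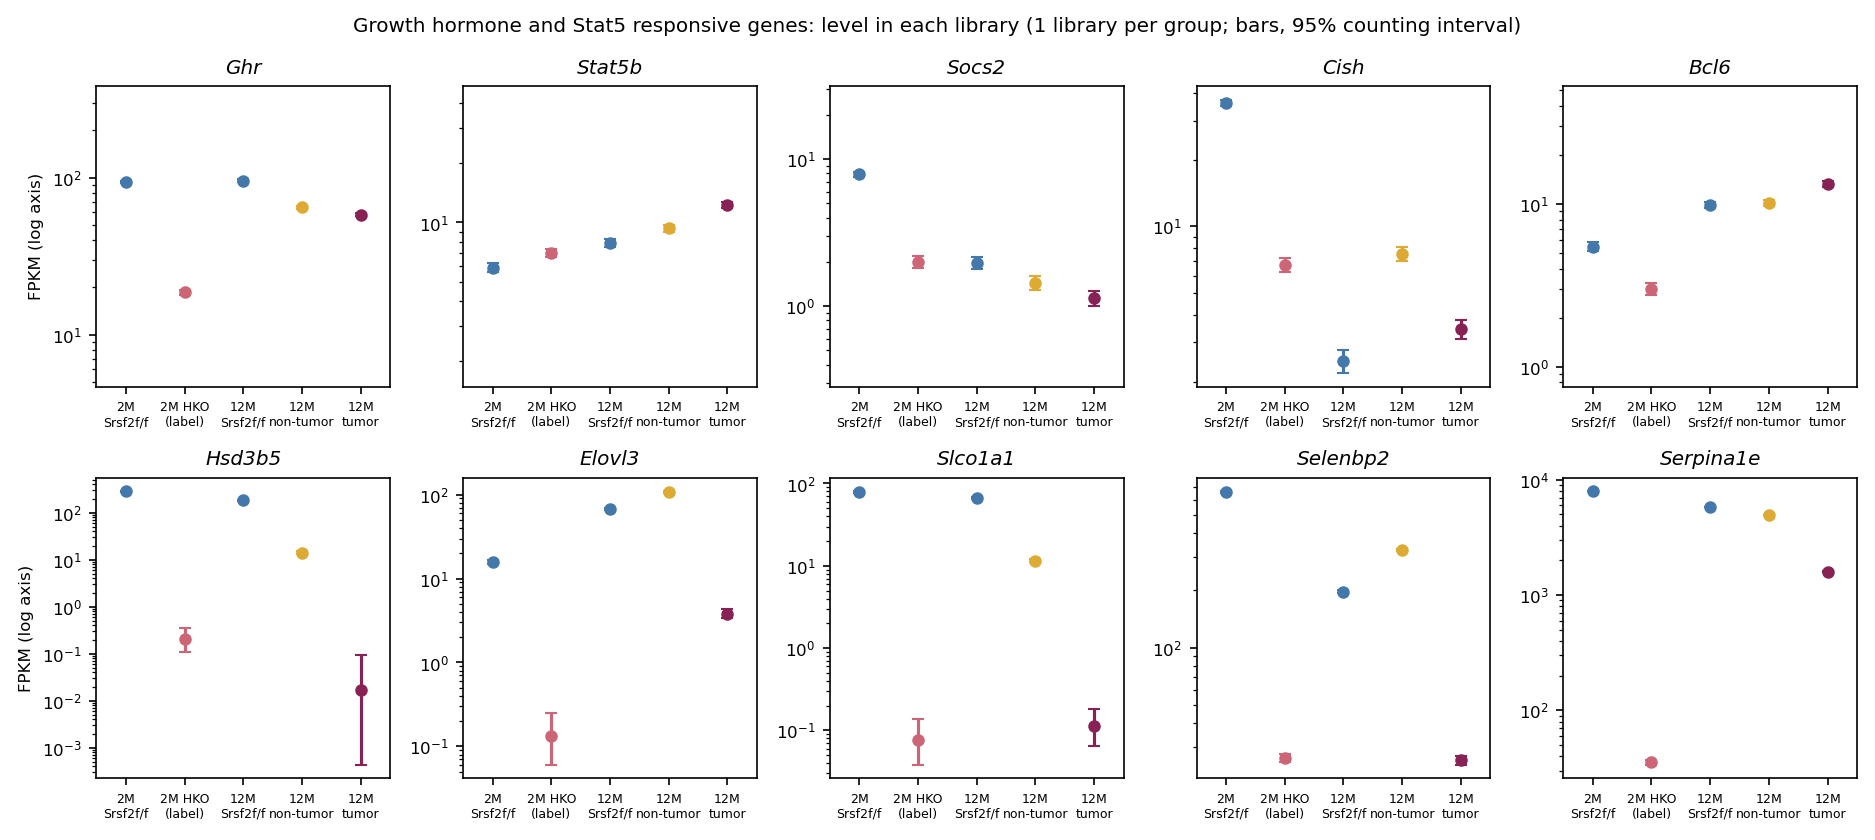
Level of each of the 10 genes in FPKM on a log axis (vertical) in the 5 libraries (horizontal), 1 point per library, with bars for the 95% counting interval. Ghr, Socs2, Cish, Hsd3b5, Elovl3, Slco1a1, Selenbp2 and Serpina1e all sit lower in the library labelled HKO than in the 2M Srsf2f/f liver, while Stat5b stays between 5.91 and 12.2 FPKM.

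**Figure D2:**
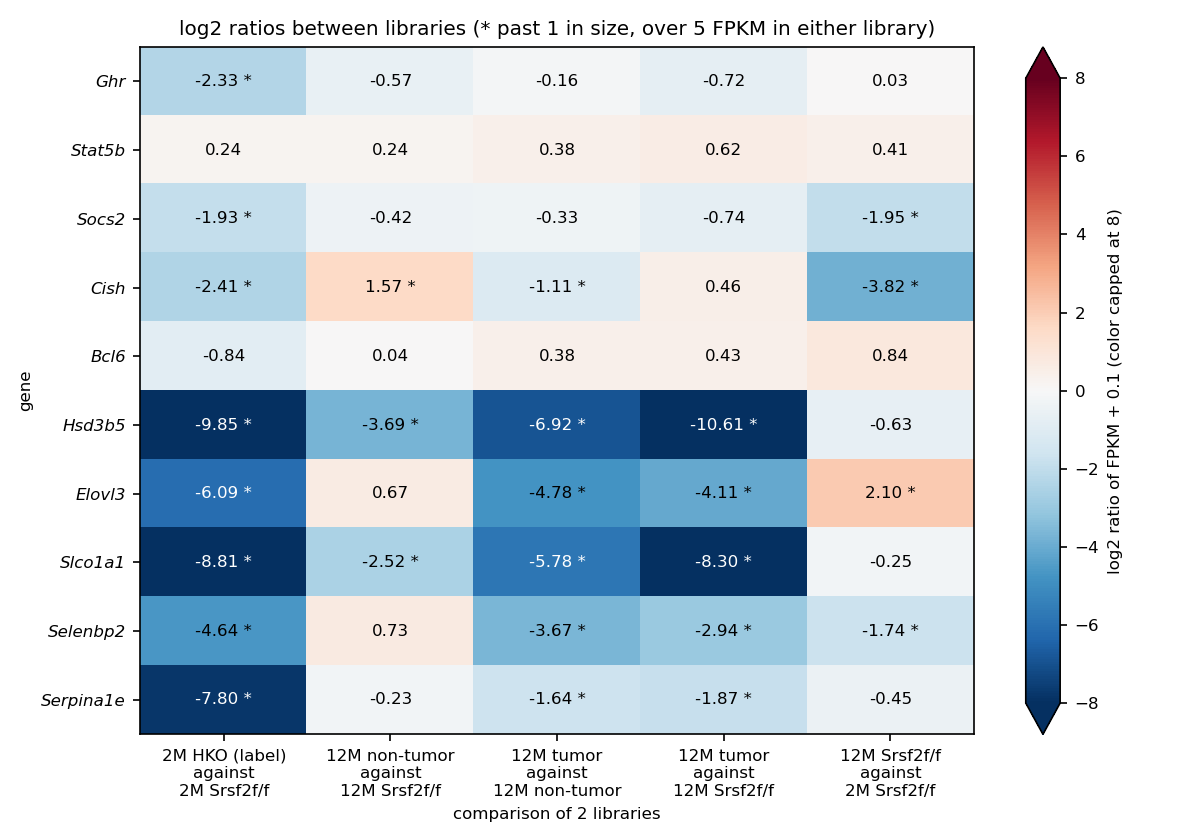
The log2 ratio of FPKM + 0.1 for each gene (rows) in each of the 5 library comparisons (columns), with the value printed, blue for lower and red for higher, and an asterisk where the gene was called. The 5 downstream genes are blue in the comparison of the library labelled HKO, with values from -9.85 to -4.64, and in both comparisons of the tumor.

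Ghr was the member at the head of the pathway and was lower in every mutant library than in the controls. It lies on chromosome 15 of GRCm38 from 3317755 to 3583352, on the minus strand. The 2M levels were 93.7 FPKM in the control and 18.6 in the library labelled HKO, and those of 12M were 95.6 in the control, 64.5 in non-tumor tissue and 57.8 in the tumor. The controls of both ages stood together, with a ratio interval of 0.997 to 1.04, and the library labelled HKO stood apart from the other 4. It was 5.04-fold lower there than in its control (4.84 to 5.25). The 12M sections were 1.48-fold (1.44 to 1.52) and 1.65-fold (1.61 to 1.70) lower than the 12M control. The log2 ratio of -0.72 for the tumor was not called, but became -1.08 relative to the shift of all expressed genes. Ghr gives rise to the full receptor and, in mice by splicing, to a circulating binding protein, which a gene-level value does not separate.

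Stat5b, on chromosome 11 from 100780731 to 100859004 on the minus strand, showed no such loss. It had 5.91 FPKM in the control and 7.02 in the library labelled HKO at 2M, and 7.90 in the control, 9.36 in non-tumor tissue and 12.2 in the tumor at 12M. Each mutant library was a little above its control, and Stat5b was called in none of the 5 comparisons. The log2 ratio of 0.24 in the library labelled HKO became -0.00 relative to the shift. In the tumor it was 0.62 against the 12M Srsf2f/f liver, or 0.27 relative to the shift. A transcript level says nothing of phosphorylation, by which Stat5b is switched on. Stat5a, its neighbor and close paralog, was at 1.15, 2.76, 2.59, 4.57 and 8.37 FPKM in the same order of libraries. Its log2 ratio was 1.20 in the library labelled HKO and 0.86 in the tumor against non-tumor tissue, from levels under those of Stat5b in all 5 libraries. Of 50-base windows of the longest coding Stat5b transcript, 11.8% also occur in Stat5a, so some fragments may fit both.

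At 2M the measured genes listed for the receptor pathway that are not members each moved less than Ghr. Without the members, 20 of 21 listed genes of GH receptor signaling had over 1 FPKM at 2M. Of these, 4 were higher and 1 was lower in the library labelled HKO, where 25.8% of all 11777 genes with over 1 FPKM were past a log2 ratio of 1 and 6.3% past -1. The higher genes were Socs3 at a log2 ratio of 1.68, the phosphatase genes Ptpn6 at 1.62 and Ptpn1 at 1.47, and Stat5a. The lower gene was Socs7 at -1.12. Jak2, the kinase bound to the receptor, was at 1.49, 2.49, 1.30, 1.74 and 2.38 FPKM in the order of libraries above and was past 1 in none of these comparisons. In non-tumor tissue against the 12M Srsf2f/f liver 1 of 20 was higher and 1 lower, beside 10.6% and 2.39% of 11037 genes. The higher gene was Socs3, at 24.4 FPKM against 1.99, and the lower gene was Prlr, the prolactin receptor, at 2.47 FPKM against 8.17. In the tumor against non-tumor tissue 1 of 21 was higher and 1 lower, beside 20.2% and 8.72% of 12063 genes. These were Socs1, at 1.03 FPKM against 0.444, and again Prlr, at 0.0912 FPKM against 2.47.

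**Figure D3:**
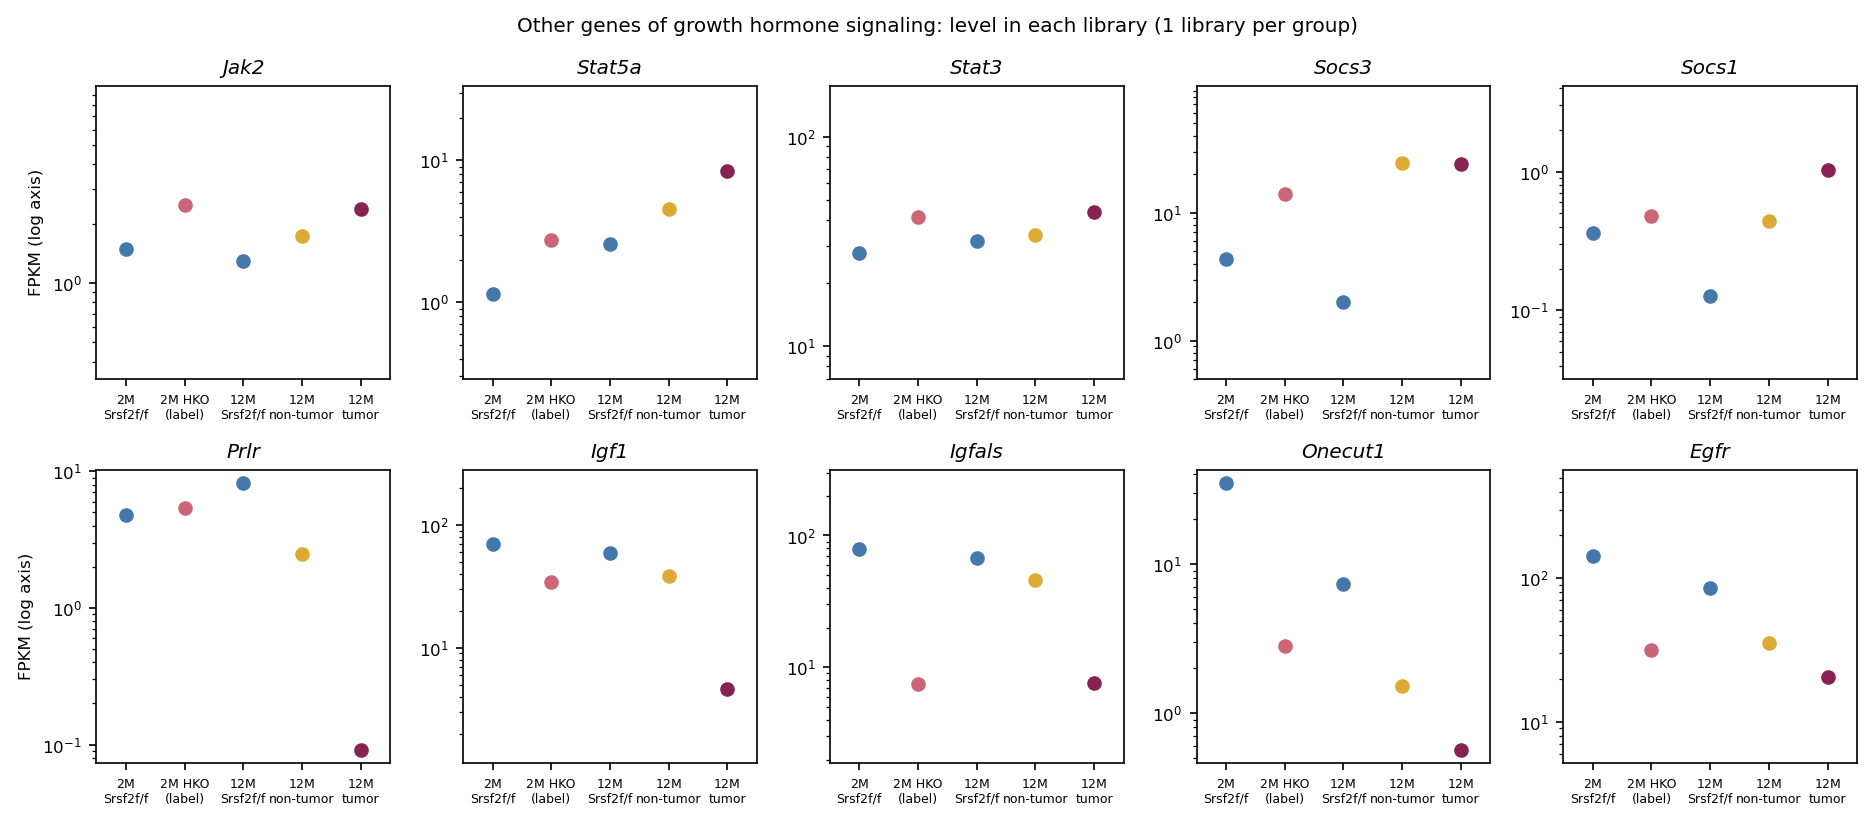
Level in FPKM on a log axis (vertical) of 10 further genes of the pathway in the 5 libraries (horizontal), 1 point per library. Igfals, Onecut1 and Egfr are lower in the library labelled HKO and in the tumor than in either control, Prlr is lowest in the tumor at 0.0912 FPKM, and Socs3 is higher in the mutant libraries than in the controls.

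The feedback inhibitors Cish and Socs2 were both lower in the 12M than in the 2M control liver, and both were lower in the library labelled HKO than in its control. Cish, whose product binds the activated receptor, lies on chromosome 9 from 107296659 to 107302784 on the plus strand. At 2M the control measured 36.1 FPKM and the library labelled HKO 6.69, while at 12M the control measured 2.47, non-tumor tissue 7.52 and the tumor 3.43. The 2M control stood above all other libraries and the 12M control was the lowest. Cish was thus 5.4-fold lower in the library labelled HKO than at 2M in the control (4.99 to 5.84), but 3.05-fold higher in non-tumor tissue than in the 12M control (2.65 to 3.51). In the tumor it was 2.19-fold lower than in non-tumor tissue (1.94 to 2.48). Between the controls it was 14.6-fold lower at 12M (12.9 to 16.6), the lowest log2 ratio of all 6114 genes tested in that comparison.

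The promoter of Cish is shown because it carries the motif that Stat5 binds. The letters TTCNNNGAA, where N is any base, read the same on both strands. They were searched in windows of 300 bases, 250 before to 50 after the start of each RefSeq gene. In all, 8.30% of 32851 windows hold at least 1 match, 0.457% at least 2 and 0.0335% at least 3. The Cish window, chr9:107296409-107296708 of GRCm38.p6 on the plus strand, holds 2, in capitals.
Cish: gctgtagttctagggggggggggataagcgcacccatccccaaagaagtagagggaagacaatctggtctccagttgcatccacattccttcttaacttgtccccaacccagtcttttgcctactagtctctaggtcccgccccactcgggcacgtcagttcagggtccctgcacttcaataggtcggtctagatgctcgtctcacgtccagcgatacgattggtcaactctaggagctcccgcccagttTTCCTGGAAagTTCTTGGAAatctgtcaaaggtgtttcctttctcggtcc
The first match begins on the first transcribed base and the second 11 bases after it, and they do not overlap. A match is a description of the letters, not a measured site of binding.

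Socs2, which encodes a suppressor of GH signaling, lies on chromosome 10 from 95383903 to 95417253 on the minus strand. The 2M levels were 7.87 FPKM in the control and 1.99 in the library labelled HKO, and those of 12M were 1.95 in the control, 1.44 in non-tumor tissue and 1.13 in the tumor. As for Cish, the 2M control stood alone at the top. The library labelled HKO and the 12M control had overlapping intervals, at 1.82 to 2.18 and 1.78 to 2.14 FPKM. Socs2 was 3.95-fold lower in the library labelled HKO than in its control (3.57 to 4.38), and 4.02-fold lower in the 12M than in the 2M control (3.63 to 4.47). Both 12M sections were under the 12M control as well, with log2 ratios of -0.42 and -0.74, but no library of these comparisons reached 5 FPKM, so Socs2 could not be called there. The genes with the most similar pattern over the 5 libraries, by the root mean square difference of centered log2 profiles among 7725 genes, were Arid5b at 0.18, Lonrf1 at 0.23 and Slc25a30 at 0.27. Of 50-base windows, 15.8% of those of Cish and 18.4% of those of Socs2 also occur in transcripts of other genes. Arid5b was also among the genes closest to Cish, at 0.64, as was Errfi1, at 0.45.

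The other suppressors of cytokine signaling were mixed. Socs4 and Socs7 were also lower in the library labelled HKO than in its control, with log2 ratios of -0.65 and -1.12. In the 12M against the 2M control they were at -0.95 and -0.56. Socs7 was thus the other suppressor past -1 at 2M, but it was at 0.51 in the tumor against non-tumor tissue. Socs3, which mainly answers cytokines of the interleukin-6 family, was at 4.35 FPKM in the control and 14.1 in the library labelled HKO at 2M, and at 1.99 in the control, 24.4 in non-tumor tissue and 23.9 in the tumor at 12M. It was thus higher in each of the mutant libraries than in both controls. Socs2 was lower in each than in the control of its age, but not lower in the library labelled HKO than in the 12M control. Socs5 had a log2 ratio of 1.09 in the library labelled HKO and Socs6 of 0.51. Socs1 was at or under 1.03 FPKM in every library.

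Bcl6 was low in the library labelled HKO and highest in the tumor. It lies on chromosome 16 from 23965052 to 23988612 on the minus strand, and its product opposes Stat5 at many liver genes and is itself lowered by GH in rodents. It had 5.44 FPKM in the control and 3.0 in the library labelled HKO at 2M, and 9.83 in the control, 10.1 in non-tumor tissue and 13.2 in the tumor at 12M. The 12M libraries all stood above those of 2M. Bcl6 was 1.81-fold lower in the library labelled HKO than in its control (1.63 to 2.01), a log2 ratio of -0.84 that was not called but reached -1.08 relative to the shift. Non-tumor tissue and the 12M control did not differ beyond counting error, with a ratio of 1.03 (0.965 to 1.10), and the log2 ratio of 0.04 turned to -0.15 relative to the shift. The tumor was 1.31-fold higher than non-tumor tissue (1.23 to 1.39), and the 12M control was 1.81-fold higher than the 2M control (1.67 to 1.95). The closest patterns were those of Atf5 at 0.16, Ifi27 at 0.19 and Slc3a1 at 0.21. Of the listed partners and relatives of Bcl6, 6 were measured at 2M and 1 was past the threshold, Mta3 at a log2 ratio of 1.45, no larger a share than the 25.8% of all genes past 1, while Hdac3 was at 0.63.

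One of the RefSeq starts of Bcl6 has a window with 3 matches to the Stat5 motif, a number reached by 11 of 32851 windows, and is shown for this reason. It is chr16:23981234-23981533 of GRCm38.p6 on the minus strand, with the matches in capitals.
Bcl6: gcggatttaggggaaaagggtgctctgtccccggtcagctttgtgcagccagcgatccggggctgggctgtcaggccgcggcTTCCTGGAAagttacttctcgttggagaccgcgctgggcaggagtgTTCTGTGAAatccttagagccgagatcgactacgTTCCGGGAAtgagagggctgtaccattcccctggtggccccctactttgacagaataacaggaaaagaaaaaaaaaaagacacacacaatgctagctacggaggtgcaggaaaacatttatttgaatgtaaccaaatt
The matches begin 168, 122 and 88 bases before the start. Another Bcl6 window, at chr16:23988803-23989102, holds 1 match. The 11 windows of 8 members were searched, and the windows of Ghr, Stat5b, Hsd3b5, Slco1a1, Selenbp2 and Serpina1e held 0 matches. Socs2 and Elovl3 were not searched. No match in a window says only that these letters are not in it.

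Among the downstream genes, Hsd3b5 and Slco1a1 had the widest ranges together with Elovl3. Hsd3b5 encodes a male-specific 3-beta hydroxysteroid dehydrogenase of mouse liver and lies on chromosome 3 from 98618636 to 98645534 on the minus strand. At 2M the control measured 283.8 FPKM and the library labelled HKO 0.207, while at 12M the control measured 183.3, non-tumor tissue 14.1 and the tumor 0.0172. These levels stand for 15951, 12, 10354, 802 and 1 fragments, so the control livers, non-tumor tissue and the remaining 2 libraries form steps far beyond counting error. In the library labelled HKO it was 1372-fold lower than in its control (785 to 2657), the second lowest log2 ratio of the 7220 genes tested. Non-tumor tissue was 13-fold lower than the 12M control (12.1 to 14.0). The tumor was lower again by 820-fold, with a wide interval of 147 to 32428 because it rests on 1 fragment. The 12M control was 1.55-fold lower than the 2M control (1.51 to 1.59), a log2 ratio of -0.63 that was not called.

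Of the other 3-beta hydroxysteroid dehydrogenases, Hsd3b2 and Hsd3b3 were lower in the same libraries but by far less. Hsd3b3 was at 112.1 FPKM in the control and 33.7 in the library labelled HKO at 2M, and at 98.2 in the control, 57.8 in non-tumor tissue and 19.6 in the tumor at 12M. Hsd3b2 had log2 ratios of -1.67 in the library labelled HKO and -1.27 in the tumor against non-tumor tissue. Hsd3b7, which acts in bile acid synthesis, was at -0.75 and -0.62 and stayed at 69.4 FPKM or more in every library. Hsd3b1, Hsd3b4 and Hsd3b6 were under 1 FPKM throughout. Of fragments given to Hsd3b2, Hsd3b3 and Hsd3b5, the share of Hsd3b5 was 50.2% in the 2M Srsf2f/f liver (exact binomial interval 49.7 to 50.8), 0.243% in the library labelled HKO (0.126 to 0.424), 42.2% in the 12M Srsf2f/f liver (41.6 to 42.9), 8.56% in non-tumor tissue (8.0 to 9.14) and 0.0328% in the tumor (0.000831 to 0.183). Of 50-base windows of Hsd3b5, 78.8% occur in the transcripts of no other gene.

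Slco1a1, a hepatocyte uptake transporter of organic anions that is male-biased in mice, followed Hsd3b5. It lies on chromosome 6 from 141907281 to 141946962 on the minus strand. The 2M levels were 79.1 FPKM in the control and 0.0768 in the library labelled HKO, and those of 12M were 66.7 in the control, 11.6 in non-tumor tissue and 0.112 in the tumor. The library labelled HKO and the tumor, with 11 and 16 fragments, had overlapping intervals, and non-tumor tissue stood between them and the controls. Slco1a1 was 1030-fold lower in the library labelled HKO than in its control (575 to 2064), 5.76-fold lower in non-tumor tissue than in the 12M control (5.47 to 6.08), and 104-fold lower in the tumor than in the non-tumor section (63.6 to 182). The genes nearest to both members in pattern were major urinary protein genes, secreted by male mouse liver under GH. For Slco1a1 these were Mup14 at 0.17, Mup13 at 0.41 and Mup18 at 0.56, and for Hsd3b5 Mup12 at 0.40, Mup7 at 0.49 and Mup1 at 0.62. Many Mup genes are near-identical copies, so their separate levels are uncertain.

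The other carriers of organic anions were mixed. Slco1a4, the closest relative measured, was at 5.43 FPKM in the 2M Srsf2f/f liver and 5.31 in the library labelled HKO, a log2 ratio of -0.03, but at 0.900 in the tumor against 2.89 in non-tumor tissue. Slco1b2, an uptake carrier of hepatocytes, was at a log2 ratio of -1.86 in the library labelled HKO and of -4.93 in the tumor against non-tumor tissue. The bile acid carrier Slc10a1 was at -1.68 and -3.17, Slco2b1 at -1.64 and -0.86, and Slco2a1 at 0.26 and -0.94. Slco3a1 was higher in the library labelled HKO, at 2.78 FPKM against 0.731.

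Elovl3 did not follow them in non-tumor tissue. It encodes an elongase of very long chain fatty acids, is male-biased and varies with the time of day in mouse liver, and lies on chromosome 19 from 46131899 to 46135694 on the plus strand. It had 15.7 FPKM in the control and 0.133 in the library labelled HKO at 2M, and 67.7 in the control, 107.5 in non-tumor tissue and 3.82 in the tumor at 12M. Its highest level was thus in a mutant library. Elovl3 was 119-fold lower in the library labelled HKO than in its control (62.2 to 260), on 9 fragments, and 1.59-fold higher in non-tumor tissue than in the 12M control (1.53 to 1.65). The tumor was 28.2-fold lower than non-tumor tissue (24.9 to 32). Between the controls it was 4.30-fold higher at 12M (4.02 to 4.61), the only member called higher there. Among the other elongases, Elovl6 had a log2 ratio of -1.95 in the library labelled HKO and -2.56 in the tumor against non-tumor tissue, Elovl2 of -0.53 and -2.07, and Elovl5 of 0.20 and -0.95. Elovl1 was at 0.95 and -0.36, Elovl7 rested on 2.12 FPKM or less, and Elovl4 was under 1 FPKM. No gene lay close to Elovl3 in pattern, the nearest being Cyp4a12a at 1.12.

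Selenbp2, a selenium-binding protein of liver that is male-biased in mice, showed the same order at 12M. It lies on chromosome 3 from 94693573 to 94704406 on the plus strand. At 2M the control measured 657.7 FPKM and the library labelled HKO 26.4, while at 12M the control measured 197.1, non-tumor tissue 326.1 and the tumor 25.5. The library labelled HKO and the tumor had overlapping intervals, and non-tumor tissue stood above its control by 1.65-fold (1.62 to 1.69). Selenbp2 was 24.9-fold lower in the library labelled HKO than in its control (23.7 to 26.2) and 12.8-fold lower in the tumor than in the non-tumor section (12.1 to 13.4). Its close patterns were Thrsp at 0.58, Slc22a30 at 0.61 and Igfals at 0.62.

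Selenbp1, its paralog nearby on chromosome 3, was called in none of the 5 comparisons. It was at 214.5 FPKM in the control and 306.2 in the library labelled HKO at 2M, and at 220.3 in the control, 200.2 in non-tumor tissue and 235.9 in the tumor at 12M. Selenbp2 thus took 75.5% of the fragments of the pair in the 2M Srsf2f/f liver (exact binomial interval 75.1 to 75.9), 7.97% in the library labelled HKO (7.60 to 8.35), 47.4% in the 12M Srsf2f/f liver (46.8 to 48.0), 62.1% in non-tumor tissue (61.6 to 62.6) and 9.82% in the tumor (9.36 to 10.3). The coding sequences differ at 18 of 1419 bases, and 52.0% of 50-base windows of Selenbp2 also occur in Selenbp1. Fragments can therefore be assigned only in part, and how the authors' counting split the rest is not given in the sources used here. The promoters of the pair are shown because they are nearly alike while the levels part: 272 of 288 aligned bases are the same, and the 16 aligned bases that differ are in capitals, for chr3:94693323-94693622 and chr3:94932833-94933132 of GRCm38.p6, both on the plus strand.
Selenbp2: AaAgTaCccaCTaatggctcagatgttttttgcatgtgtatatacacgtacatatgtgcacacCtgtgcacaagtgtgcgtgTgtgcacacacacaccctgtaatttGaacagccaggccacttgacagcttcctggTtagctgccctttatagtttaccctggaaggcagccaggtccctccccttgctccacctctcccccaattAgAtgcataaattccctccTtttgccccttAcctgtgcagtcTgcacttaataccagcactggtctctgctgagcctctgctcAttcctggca
Selenbp1: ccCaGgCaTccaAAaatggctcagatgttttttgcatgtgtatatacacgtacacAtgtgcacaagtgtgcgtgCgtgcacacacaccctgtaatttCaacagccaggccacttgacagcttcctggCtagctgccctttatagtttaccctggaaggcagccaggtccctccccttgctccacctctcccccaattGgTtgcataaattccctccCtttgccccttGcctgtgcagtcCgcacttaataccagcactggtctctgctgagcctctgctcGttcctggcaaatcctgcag

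**Figure D4:**
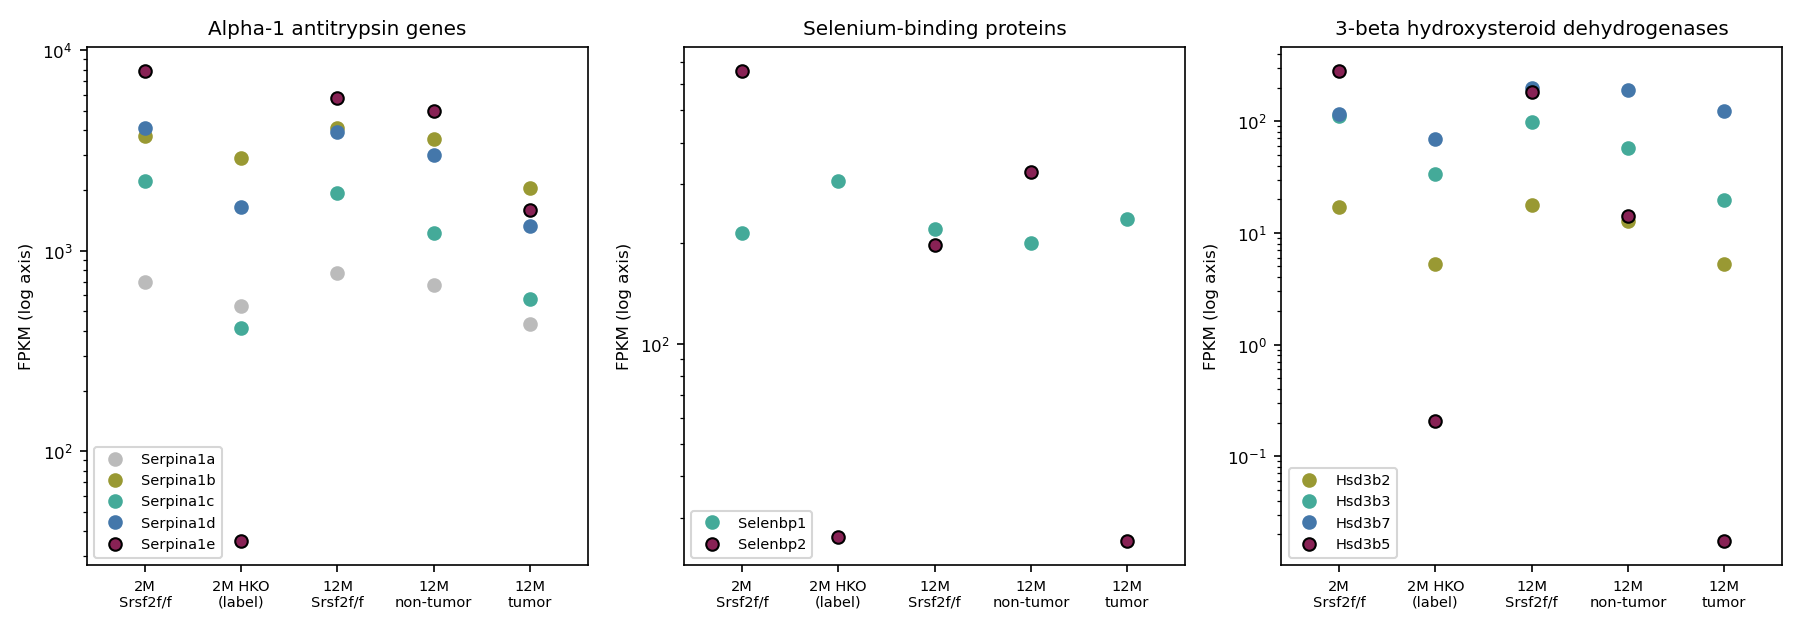
Level in FPKM on a log axis (vertical) of the alpha-1 antitrypsin genes, the selenium-binding protein genes and the measured 3-beta hydroxysteroid dehydrogenase genes in the 5 libraries (horizontal), 1 point per gene and library. In the library labelled HKO, Serpina1e, Selenbp2 and Hsd3b5 (outlined) lie below all their paralogs shown, at 35.5, 26.4 and 0.207 FPKM.

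Serpina1e was the most abundant member. It belongs to the alpha-1 antitrypsin genes, which humans carry as a single gene, and lies on chromosome 12 from 103946931 to 103956897 on the minus strand. The 2M levels were 7922 FPKM in the control and 35.5 in the library labelled HKO, and those of 12M were 5799 in the control, 4951 in non-tumor tissue and 1589 in the tumor. It thus took 1.09% of all fragments in the 2M Srsf2f/f liver and 0.00487% in the library labelled HKO. That is 223-fold lower (213 to 234), the 13th lowest log2 ratio of 7220 genes. Non-tumor tissue was within 1.17-fold of the 12M control (1.16 to 1.18), and the tumor was 3.12-fold lower than non-tumor tissue (3.09 to 3.14). Unlike Hsd3b5, Slco1a1 and Selenbp2, it thus stayed abundant in the tumor.

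Within the cluster the paralogs were graded. Serpina1a had a log2 ratio of -0.41 in the library labelled HKO, Serpina1b of -0.37, Serpina1d of -1.30 and Serpina1c of -2.43, against -7.80 for Serpina1e. In the tumor against non-tumor tissue these were -0.65, -0.80, -1.18, -1.10 and -1.64, a narrower spread. Summed over the 5 genes, the 2M control had 18691 FPKM and the library labelled HKO 5541, while the 12M control had 16528, non-tumor tissue 13452 and the tumor 5985. The share of Serpina1e in their fragments was 40.8% in the 2M Srsf2f/f liver (exact binomial interval 40.7 to 40.9), 0.595% in the library labelled HKO (0.567 to 0.623), 33.6% in the 12M Srsf2f/f liver (33.5 to 33.7), 35.2% in non-tumor tissue (35.1 to 35.3) and 25.1% in the tumor (25 to 25.3). Of 50-base windows, 64.4% of those of Serpina1e occur in no other gene, against 20.7% for Serpina1c and 32.6% for Serpina1a, so the levels of the latter are the least certain.

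Where these genes can be told apart is shown by the 60 coding bases of Serpina1e that differ most from Serpina1b, in the last exon, at chr12:103947087-103947146 of GRCm38 on the minus strand, exon 5 of GENCODE M21, with the same stretch of the other genes. Capitals mark bases that differ from Serpina1e.
Serpina1e: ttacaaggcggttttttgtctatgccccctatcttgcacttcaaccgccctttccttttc
Serpina1a: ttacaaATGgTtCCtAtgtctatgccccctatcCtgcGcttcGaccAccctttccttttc
Serpina1b: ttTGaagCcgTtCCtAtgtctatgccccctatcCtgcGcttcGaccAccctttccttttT
Serpina1c: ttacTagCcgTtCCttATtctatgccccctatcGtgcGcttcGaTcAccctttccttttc
Serpina1d: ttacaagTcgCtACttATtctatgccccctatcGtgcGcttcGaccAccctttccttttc
The other genes differ at 10 to 12 of these 60 bases. Over the whole coding sequence Serpina1e is 96.3% to 96.5% identical to each of them.

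Among the other listed Serpina genes the direction varied. Serpina3k, a kallikrein-binding inhibitor of mouse liver, was at 13158 FPKM in the control and 1753 in the library labelled HKO at 2M, and at 7602 in the control, 5479 in non-tumor tissue and 1382 in the tumor at 12M. Serpina6, which encodes the corticosteroid-binding globulin, was at a log2 ratio of -2.47 in the library labelled HKO and Serpina12 at -4.10, but Serpina12 was at 2.19 in the tumor against non-tumor tissue. Serpina3n, an acute phase gene, was higher in both, at 1.12 and 1.94. Serpina11 was at -1.17 and -0.65, Serpina3m at 0.63 and 0.96, Serpina10 at 0.54 and 0.23, and Serpina7 at 0.09 and -1.63. Serpina1f and Serpina3c were under 1 FPKM.

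Other male-biased genes shared the low levels of the downstream members. Their list, like that of the female-biased genes below, was written with earlier results of these data known. In the library labelled HKO, 21 of 21 measured genes were lower, beside the background of 6.3%, with a median log2 ratio of -4.76 against 0.35 over all measured genes. Mup7, the most abundant of them in the 2M Srsf2f/f liver at 10201 FPKM, was at 9.89 in the library labelled HKO, 6796 in the 12M Srsf2f/f liver, 493 in non-tumor tissue and 1.66 in the tumor. In non-tumor tissue 10 of 21 were lower and 1 was higher, beside 2.39% and 10.6% of all genes, the median being -0.93 against 0.20. The higher one was Mup20, at 596 FPKM against 245. In the tumor against non-tumor tissue 14 of 21 were lower and 2 higher, beside 8.72% and 20.2%, the median being -2.11 against 0.26. Mup3 and Mup21 were at 0 in the tumor, which with a floor of 3 fragments is at least 391-fold and 223-fold lower, and Ugt2b1, a glucuronosyltransferase gene, was at a log2 ratio of -7.05. The higher ones were Obp2a at 5.37 and Moxd1 at 4.39. Without the Mup genes, 5 of 15 were lower in non-tumor tissue with a median of -0.35, and 8 of 15 in the tumor with a median of -1.51. Mup20, Obp2a and Moxd1 are named because they are the exceptions, after their values were seen.

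Female-biased genes were higher in the library labelled HKO but not uniformly. Of 34 listed genes, 26 were measured, and 18 of these were higher and 2 lower, beside 25.8% and 6.3% of all genes. The median log2 ratio was 3.47 against 0.35 over all measured genes. A gene was measured with over 1 FPKM in either library, and between the controls only 14 of the 34 were. Part of the 26 thus entered only through their level in the library labelled HKO, which raises both the count and the median. Cyp2a4, a steroid hydroxylase gene, was at 0.634 FPKM in the control and 248 in the library labelled HKO at 2M, and at 2.47 in the control, 1.40 in non-tumor tissue and 3.02 in the tumor at 12M. Sult2a2 and Sult1e1, which encode sulfotransferases of steroids, were at log2 ratios of 8.53 and 7.10, and Cyp2b9 at 6.62. The 2 lower genes were Cyp2c40 and Cyp2c69, at -2.36 and -2.42. In non-tumor tissue 8 of 18 were higher and 4 lower, beside 10.6% and 2.39%, the median being 0.81 against 0.20, led by Sult1e1 at 5.94, Ntrk2 at 5.13 and Cib3 at 4.76. In the tumor against non-tumor tissue 7 of 19 were higher and 10 lower, beside 20.2% and 8.72%, the median being -1.21 against 0.26. The largest ratios there were those of Cyp2b10 at 5.88 and Sult1e1 at -5.17. Over the same comparisons 26 plasma protein genes of hepatocytes had medians of -0.10, 0.09 and -0.05.

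**Figure D5:**
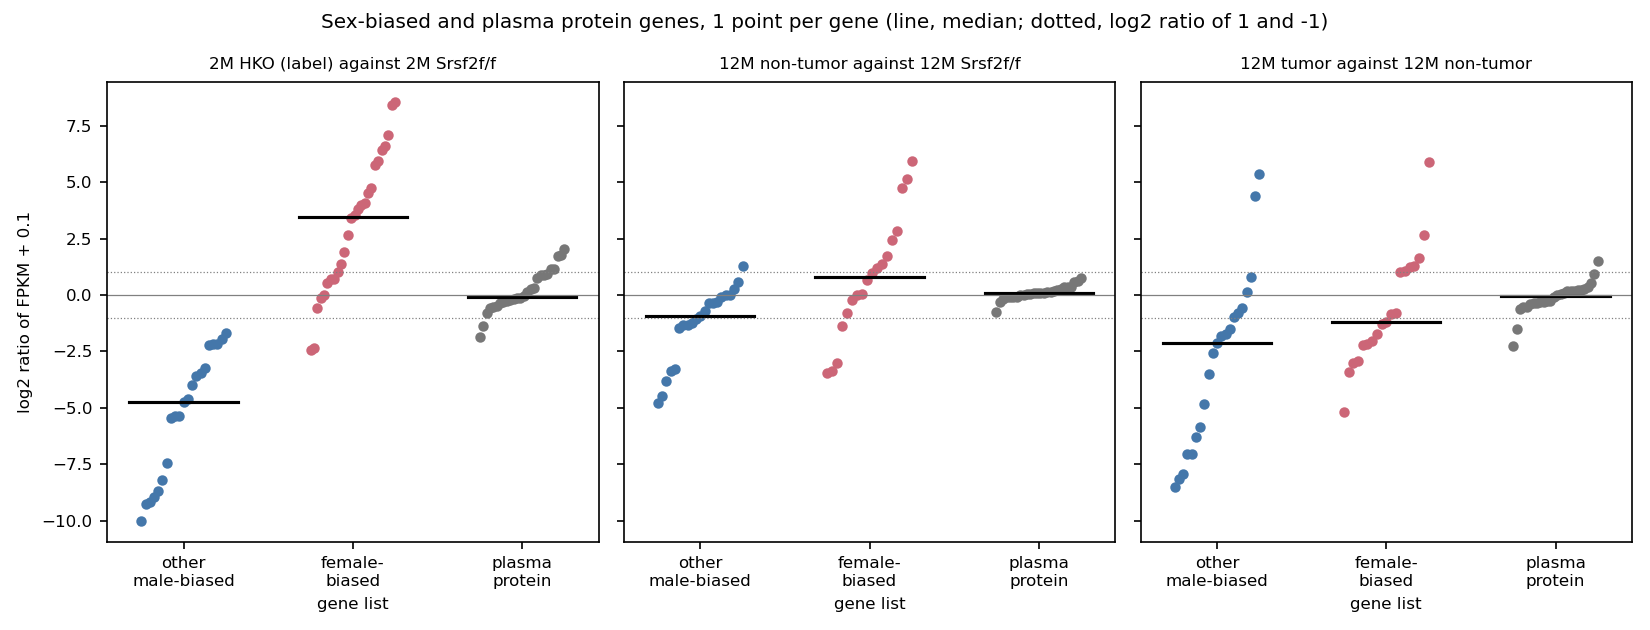
The log2 ratio of FPKM + 0.1 (vertical) of the measured genes of each list (horizontal) in 3 comparisons, 1 point per gene, with a line at the list's median and dotted lines at 1 and -1. Other male-biased genes lie below -1 in all cases in the library labelled HKO, with a median of -4.76, female-biased genes mostly above with a median of 3.47, and plasma protein genes around 0. Some female-biased genes were measured only through their level in the library labelled HKO.

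Further genes that GH is known to regulate in liver were mixed. Without the members, 5 of 16 measured genes were higher and 5 lower in the library labelled HKO, beside 25.8% and 6.3% of all genes, so the higher genes were near the share of all genes. The lower genes were the liver-enriched transcription factor gene Onecut1 at -3.58, Igfals at -3.37, the receptor genes Lifr at -2.64 and Egfr at -2.16, and Igf1 at -1.03. Onecut1 was also lower in the 12M than in the 2M control, at -2.22. The higher genes were the cell cycle genes Ccnd1 at 4.28 and Cdkn1a at 4.01, the female-biased repressor gene Cux2 at 3.40, the fatty acid carrier gene Cd36 at 2.68 and Pparg at 1.62. Igf1, which encodes the main circulating effector of GH, was at 69.9 FPKM in the control and 34.2 in the library labelled HKO at 2M, and at 59.0 in the control, 38.2 in non-tumor tissue and 4.6 in the tumor at 12M. Igfals, whose product holds the factor in blood, was at 78.4, 7.50, 67.8, 46.0 and 7.58 FPKM in the order of libraries above. Both were thus lowest or next to lowest in the tumor. In the tumor against non-tumor tissue 3 of 16 were higher and 5 lower, beside 20.2% and 8.72%, the higher genes again near that share, with Igfbp3 at 5.30 and Cdkn1a at 3.02 among the higher and Tox at -3.41 and Igf1 at -3.03 among the lower. Igfbp3 was at 592.6 FPKM in the tumor but at 14.9 in the non-tumor section. Lifr, Egfr, Cd36 and Pparg were named to complete these counts.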

How the data were processed

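Liver RNA was sequenced in paired-end libraries, 1 per group. The authors deposited FPKM for 46095 gene records with gene lengths and coordinates, and the submitters' notes name Bowtie 0.12.2 and GRCm38. Read length, strand setting and counting tool are not given in the sources used here. Fragments and library totals were worked back from FPKM times gene length, which came in whole multiples of a smallest unit (within 0.01) for 98.7% or more of the nonzero values in each library. Even numbers made up 58.8% to 61.0% of counts from 2 to 21, so both mates of a pair may in part be counted, and intervals would then be too narrow.

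Members were called by the fold and level thresholds of the study's methods. EBSeq, the authors' test, was not run. List genes were counted from 1 FPKM in either library, past a log2 ratio of 1 or -1. The members and lists were chosen with earlier results of these data known. Named genes are all members, up to 4 genes per list with the largest ratios, the paralogs, Igf1, Igfals, Jak2, Stat5a, Socs3, Srsf2 and, by profile over the 5 libraries, the 3 nearest genes per member. Some of the genes so chosen are not reported here. A planned protein comparison of paralogs was replaced by transcripts of GENCODE M21, in windows of 50 bases, and by promoters of RefSeq GRCm38.p6. The rule was run on simulated counts that hold counting error only, so that run does not bear on differences between livers. Alternatives varied the pseudocount, the FPKM minimum, the scaling and the Mup genes. Python 3.11.15, numpy 2.4.6, pandas 2.3.3, scipy 1.17.1, biopython 1.88 and matplotlib 3.10.9 were used.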

Additional observations from a re-analysis of the deposited data

Results flagged for a closer look

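Cish, Elovl3 and Selenbp2 differed from their age-matched controls in opposite directions in the library labelled HKO and in non-tumor tissue, each beyond counting error. The log2 ratio in non-tumor tissue lay above that in the library labelled HKO by 3.98 for Cish, by 6.75 for Elovl3 and by 5.36 for Selenbp2. With 1 library a group this difference was not tested, and the ages, the livers and the mutant groups cannot be told apart.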

How the results depend on the processing

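No paired analysis was possible because each group has 1 library, and for the same reason no library could be left out. The count of members called stayed within 1.5 times in each of the 5 comparisons under the 7 alternatives (a pseudocount of 1 or 0.01, a minimum of 1 FPKM or none, and scaling by the median ratio, to TPM or to plasma protein genes). It changed in 4 cases. In the library labelled HKO it went from 8 to 9 with Bcl6 under scaling by the median ratio and to plasma protein genes. In the tumor it went from 6 to 5 against the non-tumor section, without Cish, under a pseudocount of 1, and from 5 to 6 against the 12M Srsf2f/f liver, with Ghr, under scaling by the median ratio. No called log2 ratio changed sign, but sizes moved. A ratio counted as moved when its log2 value shifted by at least the distance from the middle to the end of its log2 counting interval. This rule does not ask whether the new value left the interval. By it, 33 of 50 member ratios moved under scaling by the median ratio and 20 under scaling to plasma protein genes. The count was 14 each under TPM and a pseudocount of 1, and 3 under a pseudocount of 0.01. With a pseudocount of 1 the log2 ratio in the library labelled HKO went from -6.09 to -3.89 for Elovl3, from -8.81 to -6.22 for Slco1a1 and from -9.85 to -7.88 for Hsd3b5, and in the tumor against non-tumor tissue from -6.92 to -3.90 for Hsd3b5. Without the Mup genes, 10 of 15 male-biased genes in place of 16 of 21 were lower in the tumor than in the 12M Srsf2f/f liver, with a median of -1.85 in place of -4.04. Of all 7553 genes with over 5 FPKM, 9.49% were lower there, while the male-biased genes were counted from 1 FPKM. Depth limits the lowest values: Hsd3b5 rested on 1 fragment in the tumor and 12 in the library labelled HKO, Elovl3 on 9 and Slco1a1 on 11 in that library, and ratios against them are known only to their wide intervals.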

Other observations

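Genes of the acute phase, which cytokines induce in hepatocytes through Stat3, were mostly higher at 2M in the library labelled HKO. Of 18 measured, 14 were past a log2 ratio of 1 and 0 past -1, beside 25.8% and 6.3% of all genes, with a median of 1.65. Lcn2 was at 6.79, Orm2 at 6.59, Orm3 at 3.84 and Il1rn at 3.61. In non-tumor tissue against the 12M Srsf2f/f liver 5 of 18 were higher and 0 lower, beside 10.6% and 2.39%, and in the tumor against non-tumor tissue 5 were higher and 3 lower, beside 20.2% and 8.72%, with Apcs at -2.58. Of 16 hepatocyte transcription factor genes, 4 were lower and 0 higher in the library labelled HKO, beside the same 6.3% and 25.8%. These were Onecut1 at -3.58, Foxa1 at -2.55, Cebpa at -1.56 and Foxa2 at -1.47. Between the controls 3 of the 16, counted from 1 FPKM, were lower at 12M than at 2M and 0 higher, beside 2.09% and 2.39% of 6114 genes over 5 FPKM. They were Onecut1 at -2.22, Foxa1 at -1.57 and Foxa3 at -1.35. Nr1i3, which encodes the constitutive androstane receptor, was at -4.42 in the tumor against non-tumor tissue.

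Among genes of steroid hormone response, the glucocorticoid-induced chaperone gene Fkbp5 had 7.70 FPKM in the control and 0.292 in the library labelled HKO at 2M. At 12M it had 2.62 FPKM in the control, 0.146 in non-tumor tissue and 0.171 in the tumor. Hsd11b1, which activates glucocorticoids, was at a log2 ratio of -1.97 in the library labelled HKO and 1.17 in the tumor against non-tumor tissue. Of 12 measured clock genes, Npas2 at 3.06, Arntl at 2.26 and Cry1 at 1.12 were past 1 in the tumor against non-tumor tissue, and Dbp at -2.27 and Tef at -1.10 were past -1, beside the same 20.2% and 8.72%. In the library labelled HKO 3 of 12 were lower and 0 higher, beside 6.3% and 25.8% of all genes. The lower ones were Bhlhe41 at -2.37, Nr1d1 at -1.16 and Dbp at -1.13. Between the controls Per1 was lower at 12M, at -1.27, and in non-tumor tissue Arntl was higher than in its control, at 1.21. The levels of Elovl3 follow the time of day in mouse liver and those of Cish the pulses of GH, and the part of sampling time in their values was not tested.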
